A study of Homo sapiens with 12 samples.

Results

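The genes described here are the 4 receptors of the fibroblast growth factor (FGF) family, FGFR1, FGFR2, FGFR3 and FGFR4, and the ligand genes FGF2 and FGF9. They were taken by symbol, as every probe set that the platform annotation gives to one of these genes alone. That gave 23 of the 22277 probe sets on the array, for 6 of 11963 genes: 6 for FGFR1, 10 for FGFR2, 2 each for FGFR3, FGFR4 and FGF2, and 1 for FGF9. Transcripts were measured in HCC827, an established human lung adenocarcinoma line with an activating mutation in the receptor gene EGFR, in 4 groups of 3 arrays. The parental cells and ERC4, a line resistant to the EGFR kinase inhibitor erlotinib, form one set of 6 arrays and grew in RPMI with 5% FBS. HCC827NT (NT), which received a lentivirus with a non-target shRNA, and HCC827_Esh9-1 (Esh9-1), which received one with an shRNA to EGFR, form the other set and grew in the same medium plus 5 ug/ml puromycin. ERC4 is a single resistant line and Esh9-1 a single shRNA label, so what belongs to that line or that shRNA cannot be told apart from resistance or loss of EGFR. Separate cultures for the arrays of a group are not mentioned in the labels, and the p-values therefore reflect array-to-array spread that may be technical.

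FGF receptors are tyrosine kinases of the cell surface. An FGF binds them together with heparan sulfate, the kinases phosphorylate the docking protein FRS2, and the RAS and ERK pathway is switched on, with SPRY and DUSP proteins as its brakes. FGF2 is a broadly acting ligand that leaves the cell without a classical secretion signal, and FGF9 is a secreted ligand best known from lung development, where it acts on the mesenchyme. An FGF2 and FGFR1 loop has been described as a way in which EGFR-dependent lung cancer cells with mesenchymal features live on under EGFR inhibitors, and the comparisons show what these transcripts did in resistant cells and in cells depleted of EGFR.

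EGFR itself was examined first. Its brightest probe set, 201983_s_at, had log2 levels of 13.47, 13.66 and 13.51 in the NT arrays and of 12.16, 12.27 and 12.32 in the Esh9-1 arrays, so the groups did not overlap. The change was -1.30 ± 0.08 (SE; limma adjusted p = 9.51e-07), and the probe sets 201984_s_at, 210984_x_at and 211607_x_at gave -2.16, -2.70 and -2.72. The remaining EGFR probe sets, 211551_at and 211550_at, lay far lower in level and gave 0.18 and 0.06. The first was called higher in Esh9-1 without overlap (limma adjusted p = 0.0446), and the second was not called. The call of 211551_at ended after quantile normalization, at 0.17, and in other settings. In the parental arrays 201983_s_at lay at 12.41, 12.34 and 12.40 and in ERC4 at 12.56, 12.70 and 12.52, a difference of 0.21 ± 0.08 just outside the threshold (adjusted p = 0.0502) that 5 of the 17 alternative settings called. In ERC4 201984_s_at, 210984_x_at and 211607_x_at were called higher without overlap, by 0.66, 0.27 and 0.26 (limma adjusted p = 0.00016, 0.0226 and 0.0213). The calls of 210984_x_at and 211607_x_at ended after quantile normalization, at 0.16 and 0.11, and in other settings. The lower-lying 211551_at and 211550_at gave 0.06 and -0.06 and were not called. Array medians were 50.0 to 53.0 on the intensity scale in the parental and ERC4 set and 141 to 143 in the NT and Esh9-1 set, so levels were compared only within a set. Below, a level is log2(intensity + 1), a probe set is called at a limma adjusted p under 0.05 over all 22277 probe sets, and a probe set is termed dim where both groups lie under the median of their set (5.72 and 7.17). Spiked hybridisation controls differed within sets as well. They had a mean log2 level of 11.33 ± 0.16 (SD, n = 3) in the parental arrays and of 9.80 ± 0.06 in those of ERC4. In the other set they had 11.69 ± 0.09 in NT and 12.18 ± 0.05 in Esh9-1. Their part in the results was not tested.

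In Esh9-1 against NT cells, the ligand FGF2 rose by 15.7-fold and by 3.97-fold in its 2 probe sets, FGFR1 rose by up to 5.00-fold and FGF9 fell by 4.19-fold. FGFR4 rose by 1.49-fold and 1.68-fold. FGFR2 and FGFR3 showed no call in a probe set above the median of the arrays. In all, 13 of the 23 probe sets were called, 10 higher and 3 lower, where 50.3% of all probe sets on the array were called, 24.5% higher and 25.8% lower. At 2-fold or more, 5 of 23 were called, against 8.81% of all probe sets. The members were chosen with earlier results of these data known, so counts of members, here and below, do not test for an excess. In bulk RNA such as this, fewer cells with a transcript and less transcript in each cell cannot be told apart.

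FGF2 was followed by the probe sets 204422_s_at and 204421_s_at. The level of 204422_s_at was 4.20, 4.09 and 4.14 in the NT arrays and 8.08, 8.17 and 8.11 in the Esh9-1 arrays. All 3 Esh9-1 arrays lay far above all NT arrays, and the log2 fold change was 3.97 ± 0.06 (adjusted p = 1.04e-09). In 204421_s_at the NT arrays gave 5.35, 5.53 and 5.63 and the Esh9-1 arrays 7.38, 7.67 and 7.43, again without overlap, a change of 1.99 ± 0.10 (adjusted p = 4.03e-07). The probe sets thus differed in the size of the rise and not in its direction. Relative to the median of its set NT lay at -3.03 and -1.67 on the log2 scale, so both folds start from dim signal and their sizes depend on it. Parental and ERC4 cells were dim in both probe sets as well. There 204421_s_at had group means of 5.57 ± 0.11 and 5.71 ± 0.16, a difference of 0.13 (95% interval -0.10 to 0.36), and 204422_s_at had 3.70 ± 0.12 and 3.69 ± 0.03, a difference of -0.01 (95% interval -0.19 to 0.18). The difference between the effect in ERC4 and that in Esh9-1 was -3.98 ± 0.10 and -1.85 ± 0.15 (limma adjusted p = 2.7e-12 and 1.87e-07).

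**Figure D1:**
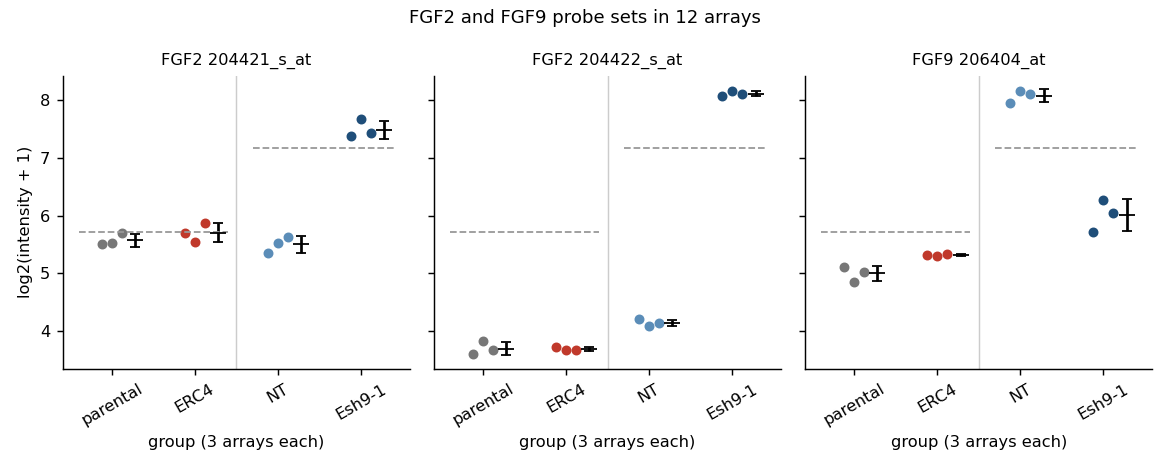
Levels of the FGF2 probe sets 204421_s_at and 204422_s_at and of FGF9 (206404_at) as log2(intensity + 1) in the 12 arrays. Dots are arrays, black bars are mean and SD of 3 arrays, dashed lines are the medians of each set (5.72 and 7.17), and the grey line parts the sets, between which levels are not comparable. In Esh9-1 alone, both FGF2 probe sets stand above the dashed line, and FGF9 stands above it in NT alone.

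In FGF2 and FGFR4 alone among the members, every probe set was called higher in Esh9-1. The stretches before their start sites are shown for that reason. They hold the 250 bases upstream of the RefSeq start on GRCh38.p14, at chr4:122826581-122826830 on the plus strand and chr5:177086665-177086914 on the plus strand, 5′ to 3′, with each GC box (GGGCGG or its reverse complement, the motif of SP1-type factors) in capitals.
FGF2: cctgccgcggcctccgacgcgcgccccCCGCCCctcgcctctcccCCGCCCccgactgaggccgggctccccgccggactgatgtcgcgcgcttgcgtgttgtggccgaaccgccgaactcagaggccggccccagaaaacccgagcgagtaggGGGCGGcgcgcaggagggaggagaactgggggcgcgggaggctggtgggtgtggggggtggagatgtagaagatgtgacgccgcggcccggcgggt
FGFR4: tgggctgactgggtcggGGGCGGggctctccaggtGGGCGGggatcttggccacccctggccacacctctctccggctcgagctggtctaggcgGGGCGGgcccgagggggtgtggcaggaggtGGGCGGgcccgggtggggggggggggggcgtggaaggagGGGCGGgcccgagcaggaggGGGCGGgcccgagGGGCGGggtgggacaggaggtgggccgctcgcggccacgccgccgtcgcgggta
The FGF2 stretch holds 3 GC boxes and the FGFR4 stretch 7, and 42.6% of 35114 promoter stretches of this length hold at least 1 on either strand. GC content was 75.2% and 79.6%, against a median of 58% over all stretches. The corresponding stretches of FGFR2 and FGFR3 held 3 and 8 GC boxes. The stretch of FGFR1 was not examined. Of the other motifs searched on both strands, AP-1 (TGANTCA, in 6.57% of all stretches), TEAD (GGAATG, 11.9%), ETS (CCGGAA, 14.5%) and the TATA box (TATAAA, 10.7%) had no match in FGF2 or FGFR4. The E-box CACCTG (17.5%), the motif of ZEB and SNAI repressors, had 1 match in FGFR4. A match or its lack describes these letters only.

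FGF9 ran the other way. Its probe set 206404_at had levels of 7.95, 8.17 and 8.12 in the NT arrays and of 5.72, 6.27 and 6.04 in the Esh9-1 arrays, so every Esh9-1 array lay below every NT array. The log2 fold change was -2.07 ± 0.13 (adjusted p = 1.59e-06). In the other set the parental arrays gave 5.12, 4.85 and 5.03 and the ERC4 arrays 5.32, 5.30 and 5.34. ERC4 was higher without overlap, by 0.32 ± 0.09 (adjusted p = 0.0131), but both groups lay under the median of their set, at -0.72 and -0.40 relative to it. The effects differed by 2.39 ± 0.17 (adjusted p = 3.56e-08). Relative to the set median FGF9 stood at 0.91 in NT and at -1.16 in Esh9-1, while parental cells stood at -0.72 relative to theirs. Whether Esh9-1 or NT departed from parental cells cannot be told apart from the difference between sets.

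FGFR1 is the receptor that FGF2 binds in mesenchymal cells, and its 6 probe sets differed in the size of their changes and, in ERC4, in direction. In Esh9-1 the largest rise was in 211535_s_at, whose levels were 6.46, 6.23 and 6.25 in NT and 8.57, 8.51 and 8.82 in Esh9-1, a change of 2.32 ± 0.10 (adjusted p = 1.41e-07). The probe set 210973_s_at had 6.93, 7.01 and 6.92 in NT and 8.16, 8.40 and 8.40 in Esh9-1, a change of 1.37 ± 0.08 (adjusted p = 9.72e-07). In both, all Esh9-1 arrays lay above all NT arrays, and the groups crossed the median of the set from below to above. The brightest probe set, 207937_x_at, had 7.86, 7.98 and 7.95 in NT against 8.22, 8.19 and 8.15 in Esh9-1, a change of only 0.26 ± 0.06 (adjusted p = 0.0069). The suffix x marks probe sets with probes that can also match other transcripts, and 215404_x_at carries it too. That probe set had 7.30, 7.58 and 7.44 in NT and 7.72, 7.71 and 7.46 in Esh9-1, groups that overlapped, with a change of 0.19 (95% interval -0.03 to 0.40, adjusted p = 0.139). It was called only without Esh9-1 replicate 3, at 0.27 (adjusted p = 0.0397, range 0.0397 to 0.378 over 17 alternatives). The dim probe sets 222164_at and 207822_at rose by 0.56 ± 0.12 and 0.26 ± 0.07 (adjusted p = 0.00381 and 0.00942). Thus 5 of the 6 FGFR1 probe sets were called higher in Esh9-1 and none lower. Of all probe sets 24.5% were called higher there and 25.8% lower. The 6 probe sets read the same gene and are not independent.

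In ERC4 the same receptor was called in 5 of 6 probe sets, 4 higher and 1 lower. Of all probe sets 48.6% were called there, 23.6% higher and 24.9% lower. The rise was largest in 210973_s_at, with 5.33, 5.45 and 5.56 in the parental arrays and 6.24, 6.08 and 6.28 in ERC4, a change of 0.75 ± 0.09 (adjusted p = 0.000127). The opposing probe set 215404_x_at had 6.30, 6.29 and 6.40 in the parental arrays and 5.64, 5.62 and 5.59 in ERC4, a change of -0.71 ± 0.07 (adjusted p = 5.3e-05). Neither pair of groups overlapped, and both calls held in all 17 alternative settings. Smaller rises were called in 211535_s_at (5.55, 5.98 and 5.75 against 6.06, 6.47 and 6.18) and in 207937_x_at (6.46, 6.46 and 6.42 against 6.72, 6.65 and 6.92). They came to 0.48 ± 0.13 and 0.32 ± 0.09 (adjusted p = 0.0152 and 0.0148). Each call held in 15 of 17 alternatives and ended at the threshold of 0.01 and without 1 of the arrays. Without ERC4 replicate 2, 211535_s_at gave 0.36 (adjusted p = 0.0613). Without ERC4 replicate 3, 207937_x_at gave 0.24 (adjusted p = 0.0584). Over 17 alternatives these adjusted p-values ranged from 0.00198 to 0.0613 and from 0.00268 to 0.0584. The dim 222164_at rose by 0.40 ± 0.09 (adjusted p = 0.00387), and 207822_at gave -0.08 (95% interval -0.32 to 0.15). The rise in ERC4 minus that in Esh9-1 was -1.85 ± 0.18 in 211535_s_at and -0.62 ± 0.12 in 210973_s_at (adjusted p of the difference 1.22e-06 and 0.000786). In 207937_x_at the effects differed by 0.06 ± 0.11 (adjusted p = 0.667).

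**Figure D2:**
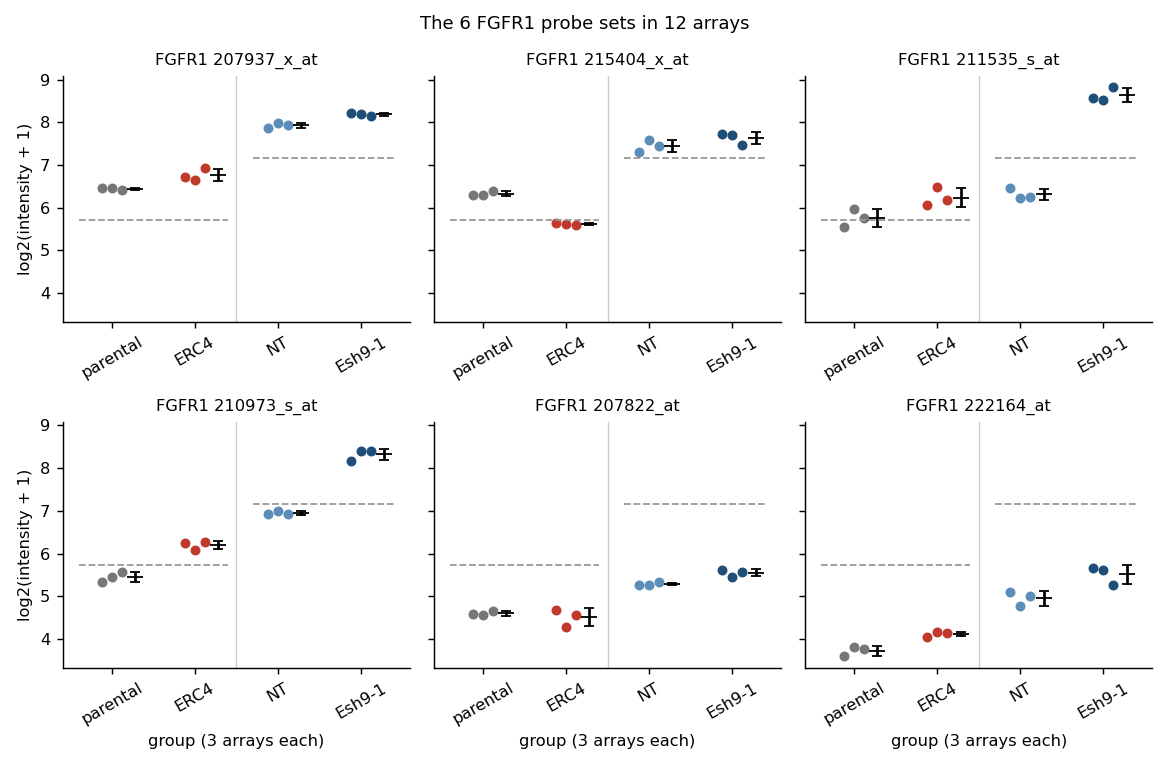
Levels of the 6 FGFR1 probe sets as log2(intensity + 1) in the 12 arrays. Dots are arrays, black bars are mean and SD of 3 arrays, dashed lines are the set medians (5.72 and 7.17), and the grey line parts the sets. The probe sets 211535_s_at and 210973_s_at cross the dashed line in Esh9-1, while 215404_x_at is the one that falls in ERC4, by 0.71 on the log2 scale.

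FGFR4, a receptor known from liver and endoderm-derived tissue, rose in Esh9-1 in both probe sets. The level of 204579_at was 6.83, 6.91 and 6.92 in NT and 7.75, 7.57 and 7.60 in Esh9-1, and that of 211237_s_at was 7.40, 7.55 and 7.58 against 8.19, 8.11 and 7.95. No array of 1 group reached the range of the other, and the changes were 0.75 ± 0.07 and 0.57 ± 0.08 (adjusted p = 1.99e-05 and 0.000344). In ERC4 only 204579_at was called, at 0.36 ± 0.12 (adjusted p = 0.0348), and its groups overlapped, at 5.75, 5.43 and 5.32 in parental and 5.92, 5.98 and 5.69 in ERC4. That call ended without parental replicate 2 (0.33), parental replicate 3 (0.27), ERC4 replicate 1 (0.34) or ERC4 replicate 2 (0.30), with adjusted p-values from 0.0057 to 0.123 over 17 alternatives. The other probe set gave 0.21 (95% interval -0.01 to 0.43) and was called without parental replicate 1, at 0.30, and after median centring, at 0.27 (adjusted p = 0.0199 and 0.0492, range 0.0199 to 0.304).

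FGFR3 was lower in ERC4 in its brighter probe set, 204379_s_at. The parental arrays gave 5.62, 5.78 and 5.83 and the ERC4 arrays 5.48, 5.17 and 5.21, a change of -0.46 ± 0.10 (adjusted p = 0.00492) without overlap that held in 17 of 17 alternatives. In Esh9-1 this probe set was not called. NT had 7.05, 6.86 and 7.004 and Esh9-1 had 7.10, 7.10 and 7.59, a change of 0.29 (95% interval -0.01 to 0.58). The groups did not overlap, by a narrow margin, and Esh9-1 replicate 3 stood apart from the other arrays. The effects differed by -0.75 ± 0.18 (adjusted p = 0.00302). The dim 204380_s_at gave -0.24 (95% interval -0.47 to -0.001) in ERC4, where it was called without parental replicate 1 at -0.31 (adjusted p = 0.0459, range 0.0459 to 0.37). In Esh9-1 it gave -0.28 ± 0.10 (adjusted p = 0.048), a call that 9 of 16 alternatives ended, leaving out NT replicate 1, 2 or 3 or Esh9-1 replicate 1 or 2 among them (-0.16 to -0.32, adjusted p from 0.0273 to 0.149 over all alternatives).

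FGFR2, whose epithelial splice form answers to FGFs made by the mesenchyme, gave little signal. Of its 10 probe sets, 9 were dim in both sets of arrays. The exception, 208234_x_at, had levels of 6.09, 5.92 and 5.79 in the parental arrays and of 5.76, 5.82 and 6.19 in those of ERC4. The NT arrays gave 7.72, 7.57 and 7.58 and the Esh9-1 arrays 7.70, 7.81 and 7.87, and groups overlapped in both comparisons. Its changes were -0.01 (95% interval -0.29 to 0.27) and 0.17 (95% interval 0.01 to 0.34). Only the second was called in any setting, without dim probe sets (0.17), with array weights (0.20) and without NT replicate 1 or Esh9-1 replicate 1 (0.22 each), with adjusted p-values from 0.0364 to 0.224 over 17 alternatives. Among the dim ones, 211398_at had 5.12, 5.11 and 5.02 in the parental arrays and 4.63, 4.70 and 4.75 in ERC4. It changed by -0.39 ± 0.08 (adjusted p = 0.00249), a call that held in all 16 alternatives. Weaker calls were those of 208225_at, 211401_s_at and 208228_s_at, at -0.21, -0.34 and -0.28 (adjusted p = 0.0496, 0.049 and 0.0265), and 12, 9 and 8 of their 16 alternatives ended these calls, both quantile normalization and median centring included. Leaving out any array but parental replicate 3 ended the call of 208225_at (-0.17 to -0.22), any but parental replicate 2 that of 211401_s_at (-0.24 to -0.37), and any but parental replicate 1 or 3 that of 208228_s_at (-0.20 to -0.29). Conversely, 208229_at, not called at -0.26, was called without parental replicate 2 (-0.35) or ERC4 replicate 2 (-0.36). In Esh9-1, 208229_at rose by 0.65 ± 0.11 (adjusted p = 0.00109) and 208225_at changed by -0.37 ± 0.09 (adjusted p = 0.00755), so that the dim FGFR2 probe sets moved in both directions. Another, 203638_s_at, was called only without NT replicate 3 (-0.23, against -0.16 with all arrays). The dim 211400_at, 203639_s_at and 211399_at gave -0.08, -0.08 and -0.07 in ERC4 and -0.06, -0.11 and -0.06 in Esh9-1. They were not called in any setting.

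**Figure D3:**
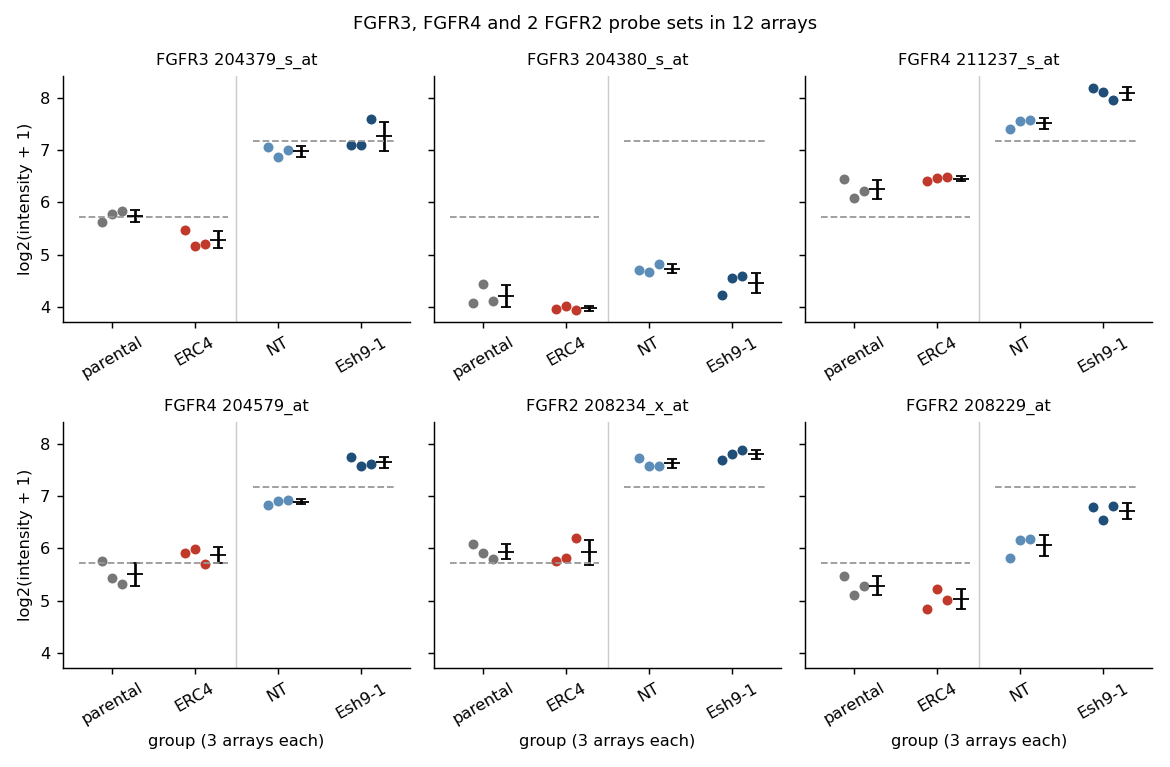
Levels of FGFR3 (204379_s_at, 204380_s_at), FGFR4 (211237_s_at, 204579_at) and 2 FGFR2 probe sets (208234_x_at, 208229_at) as log2(intensity + 1) in the 12 arrays. Dots are arrays, black bars are mean and SD of 3 arrays, dashed lines are the set medians (5.72 and 7.17), and the grey line parts the sets. Both FGFR4 probe sets are higher in Esh9-1 than in NT without overlap, and 204379_s_at is lower in ERC4 than in parental.

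Over all members, 12 of 23 probe sets were called in ERC4 against parental, 6 higher and 6 lower, where 48.6% of all probe sets were called, 23.6% higher and 24.9% lower. The members' share was near that background, and 0 of 23 reached a called 2-fold change, against 5.45% of all probe sets. The median log2 fold change of the 23 was -0.07 in ERC4, where all probe sets had -0.06, and 0.19 in Esh9-1, where all had -0.03. Groups did not overlap in 11 of 23 probe sets in ERC4 and in 15 of 23 in Esh9-1, against 58.3% and 58.8% of all probe sets. Only 8 of 23 reached the median of the set in ERC4 or parental cells, 6 of them called, and 11 of 23 did in Esh9-1 or NT cells, 8 of them called. The share called among all probe sets that reach the median is not given here, so these counts have no like background. The difference of effects was called in 11 of 23, 1 positive and 10 negative, against 47.5% of all probe sets, 23.9% positive and 23.6% negative. A single probe set, that of FGF9, was called in opposite directions in the comparisons.

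**Figure D4:**
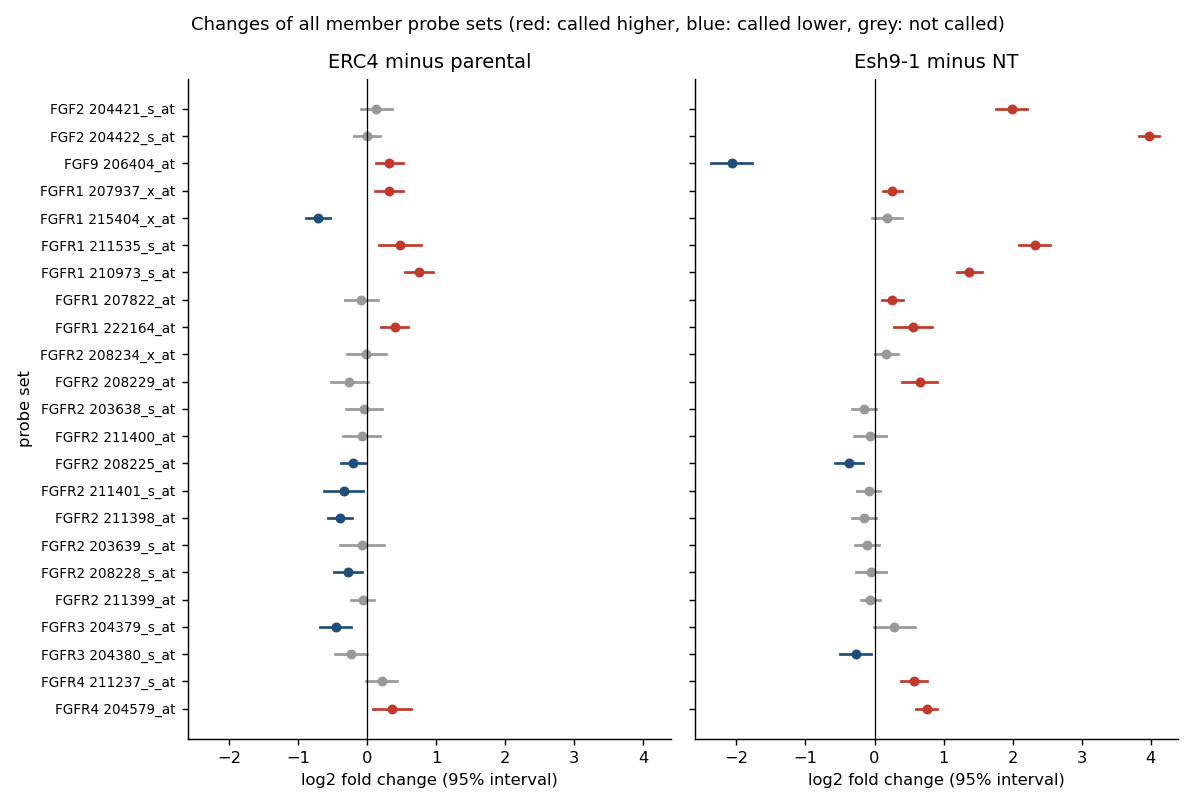
Log2 fold changes of the 23 probe sets with 95% intervals, ERC4 minus parental on the left and Esh9-1 minus NT on the right. Red marks probe sets called higher, blue those called lower and grey those not called. Changes in ERC4 stay between -0.71 and 0.75, while in Esh9-1 they run from -2.07 (FGF9) to 3.97 (FGF2).

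Signs of cell state and RNA quality moved with these results. HCC827 is an epithelial line, and all 10 lung adenocarcinoma epithelial markers measured, EPCAM, CDH1 and keratin genes among them, lay at or above the set median in parental, ERC4 and NT cells and 8 of 10 did in Esh9-1. Of these, 9 fell in ERC4 and NKX2-1 rose by 0.37, which was not called after quantile normalization (0.15), and 10 fell in Esh9-1, where their summed intensity was 11600 to 12100 against 62600 to 63700 in NT. Fibroblast markers, of which no more than 2 of 10 reached the set median in any group, had a summed intensity of 1030 to 1140 in NT and 1060 to 1110 in Esh9-1. Among them LUM, which encodes the matrix protein lumican, rose by 5.91-fold in Esh9-1, from 4.22 ± 0.04 to 6.78 ± 0.03 (SD, n = 3), and stayed under the set median. Endothelial markers came to 365 to 370 and 338 to 354, with 0 of 7 at the set median in either group, and leukocyte markers to 902 to 930 and 1160 to 1200, with 2 of 10 at the median in each. Of the 10 leukocyte markers, 3 were called higher and 2 lower in Esh9-1, against 26.2% and 26.1% of all genes. LAPTM5, a lysosomal membrane protein gene, rose by 4.78-fold there, from 6.44 ± 0.14 to 8.70 ± 0.04. CORO1A fell by 1.89-fold, from 7.59 ± 0.03 to 6.68 ± 0.14. The dim CD14 and ITGAM rose by 1.23-fold and 1.19-fold and the dim CD3E fell by 1.18-fold, calls that did not hold in every setting. The 3' minus 5' log2 signal of the ACTB control probe sets was 0.20 ± 0.03 (SD, n = 3) in NT and 1.06 ± 0.15 in Esh9-1, with values of 0.22 ± 0.05 and 0.19 ± 0.04 in the parental and ERC4 arrays. That of the GAPDH control probe sets shifted less, from -0.05 ± 0.02 in NT to 0.30 ± 0.08 in Esh9-1. It was 0.06 ± 0.02 in the parental and -0.08 ± 0.03 in the ERC4 arrays. The part of these shifts in the FGF results was not tested.

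Partners of the receptors were taken from lists of the pathway, with the brightest probe set standing for a gene. Over all 11963 genes 50.9% were called in ERC4, 26.1% higher and 24.9% lower, and 52.3% in Esh9-1, 26.2% higher and 26.1% lower. Of 17 other FGF genes measured, 1 was higher and 8 were lower in ERC4 (median -0.26, all genes -0.04), and 1 was higher and 1 lower in Esh9-1 (median -0.08, all genes -0.02). Only 4 of the 8 lower ones reached the set median, FGF18 with -0.91 ± 0.13, FGF4, FGF6 and FGF1. FGF4, at -0.49, was not called without ERC4 replicate 1 (-0.41) or ERC4 replicate 2 (-0.46), and FGF1, at -0.31, not without ERC4 replicate 1 (-0.26). Among the dim ones, FGF21 and FGF3 lost their calls in 4 of 6 such fits each, FGF21 except without parental replicate 3 or ERC4 replicate 3 and FGF3 except without parental replicate 1 or ERC4 replicate 2 (-0.29 to -0.41 and -0.20 to -0.24). Both calls also ended after quantile normalization (-0.27 and -0.11) and median centring (-0.32 and -0.17), against -0.38 and -0.23 as fitted, and that of FGF3 also with a pseudocount of 16 (-0.14) and with a trended, robust variance model (adjusted p = 0.0525 and 0.0691). FGF13, an intracellular member of the family that does not signal through the classical receptors, rose by 1.84-fold in ERC4 and fell by 2.80-fold in Esh9-1. The secreted ligand FGF5 rose by 2.37-fold in Esh9-1, from 6.14 ± 0.07 to 7.38 ± 0.12 (SD, n = 3; adjusted p = 1.42e-06).

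Of 16 genes for co-receptors and for proteins that bind FGFs or their receptors at the cell surface, 1 was higher and 6 lower in ERC4, and 5 were higher and 3 lower in Esh9-1. SDC1, a heparan sulfate proteoglycan of epithelial cells, fell by 4.08-fold in ERC4 and by 5.19-fold in Esh9-1 (adjusted p = 2.47e-07 and 6.59e-09). FGFBP1, a carrier that frees FGFs from the matrix, fell by 3.26-fold and 3.99-fold, and HSPG2, which encodes the matrix proteoglycan perlecan, fell by 2.14-fold in ERC4. SDC4, SDC2 and GPC1 completed the lower genes there. FLRT3, a membrane protein that binds FGF receptors, was the one that rose in ERC4, by 4.23-fold. In Esh9-1 its relative FLRT2 rose by 3.29-fold and the glypican GPC1 by 3.19-fold, together with HSPG2, CDH2 and SDC3. FLRT3, dim in that set, fell by 1.93-fold. GPC1 changed by -0.26 in ERC4, a call that ended without ERC4 replicate 2 (-0.22) and after median centring (-0.20), and that of the dim SDC2 (-0.51) ended without ERC4 replicate 3 and after quantile normalization (-0.42 each). Of 17 enzymes that build or trim heparan sulfate, 3 were higher and 3 lower in ERC4 and 7 higher and 3 lower in Esh9-1. HS2ST1, a sulfotransferase that helps to form FGF2 binding sites, rose by 1.99-fold in ERC4, as did the chain polymerases EXT2 and EXT1 by 1.55-fold and 1.25-fold, the last not called after quantile normalization (0.10). EXTL3 and the dim HS3ST1 and EXTL1 were the lower ones. In Esh9-1 EXT1 rose by 1.90-fold, while HPSE, the enzyme that cleaves the chains, fell by 2.20-fold. HS2ST1 and the dim HS6ST1 fell by 1.35-fold and 1.31-fold there.

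Of 11 genes for adaptors and relays that act inside the cell, 4 were higher in ERC4 (PTPN11, SOS2, CRKL and the dim CBLB). There 2 were lower (GRB2 and the dim GAB1), and PTPN11, the phosphatase that carries the signal to RAS, rose by 1.59-fold. The calls of CBLB, CRKL and GAB1 there, at 0.39, 0.31 and -0.42, did not hold in all fits. After quantile normalization CRKL gave 0.10 and GAB1 -0.30 (adjusted p = 0.472 and 0.0889). The call of CBLB ended without parental replicate 1 or 3 or ERC4 replicate 1 or 2 (0.28 to 0.38), that of CRKL without parental or ERC4 replicate 1 (0.28 and 0.23), and that of GAB1 without parental replicate 1 or ERC4 replicate 1 or 3 (-0.28 to -0.39). In Esh9-1, 3 were higher (PLCG1, SOS2 and the dim FRS3) and 4 lower. PLCG1, a phospholipase that binds activated FGF receptors, rose by 1.60-fold. The ubiquitin ligases CBL and CBLB, which direct receptors to degradation, fell by 1.61-fold and 1.92-fold. SOS1 and the dim GAB1 were the others that fell. Among 7 ERK feedback inhibitors, 3 were higher in ERC4 (DUSP4 by 1.63-fold, SPRED2 and SPRY4) and 1 was lower (SPRY1), and 4 were lower in Esh9-1 with 0 higher. Those 4 were DUSP6 by 18.8-fold, SPRY1 by 2.36-fold, SPRED2 by 1.66-fold and DUSP5 by 1.33-fold. SPRY4 in ERC4, at 0.30, was not called without parental replicate 2 (0.25), parental replicate 3 (0.27), ERC4 replicate 1 (0.27) or ERC4 replicate 2 (0.30). Of 9 ERK output genes, 5 were higher and 3 lower in ERC4 and 4 higher and 3 lower in Esh9-1. The transcription factor gene ETV5, often used as a readout of FGF signalling, rose by 1.91-fold in ERC4 and 1.71-fold in Esh9-1, while its relative ETV4 fell by 1.62-fold and 1.45-fold. The other calls in ERC4 were PHLDA1, FOSL1, CCND1 and MYC (higher) and IER3 and the dim EGR1 (lower). Those in Esh9-1 were IER3, CCND1 and FOSL1 (higher) and PHLDA1 and EGR1 (lower).

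Splicing decides which ligands FGFR2 can bind, and 5 of the 6 listed regulators of that choice were measured. ESRP1, the epithelial factor that promotes the form for mesenchymal ligands, fell by 14.5-fold in ERC4 and by 18.7-fold in Esh9-1. Its level went from 8.46 ± 0.09 to 4.60 ± 0.08 between parental and ERC4 arrays and from 10.21 ± 0.13 to 5.99 ± 0.36 between NT and Esh9-1 arrays (SD, n = 3; limma adjusted p = 4.97e-09 and 6.76e-08). RBFOX2, a splicing factor active in both epithelial and mesenchymal programmes, fell by 1.45-fold in ERC4 and rose by 1.75-fold in Esh9-1. CELF1 rose in both, by 1.48-fold and 1.27-fold, and PTBP1 rose in ERC4, by 0.37, though not after quantile normalization (0.20). CELF2, dim in NT and Esh9-1, fell by 1.42-fold in Esh9-1. The positions of the FGFR2 probe sets on the transcript were not available, and 9 of 10 were dim. The splice form itself was therefore not read here.

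**Figure D5:**
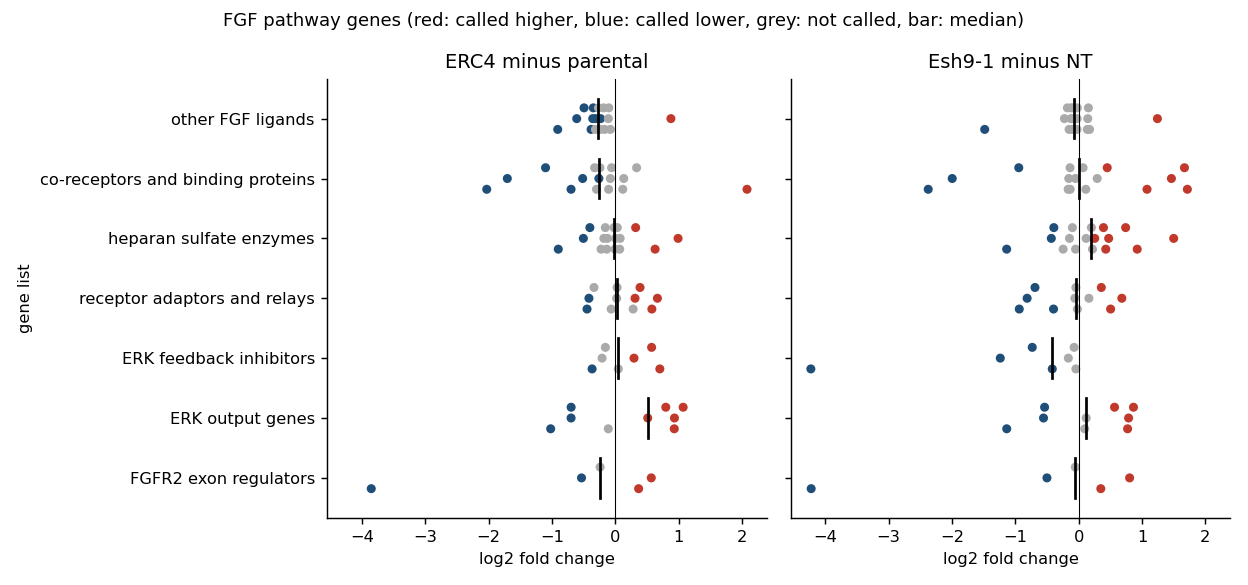
Log2 fold changes of genes in 7 lists of the FGF pathway, ERC4 minus parental on the left and Esh9-1 minus NT on the right, each dot the brightest probe set of a gene. Red marks genes called higher, blue those called lower, grey those not called, and the black bar is the median of a list. The ERK feedback inhibitors called in Esh9-1 are all lower, 4 of 7, and ESRP1 is the lowest dot of the FGFR2 exon regulators on both sides.

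The genes most like each member were sought over the 12 arrays after the mean of each set had been subtracted, among 6602 genes that reach the set median in both sets. The arrays form 4 groups, so this correlation mostly follows the group means, and it is given as a description. For FGF9 the most alike gene was EGFR (Pearson's r = 0.9877), then SEC23B and PRPF19 (0.9859 each). For FGF2 (204421_s_at) they were SEC61B (0.9929), GSTM3 (0.9907) and TARS1 (0.9876), of which GSTM3 changed by 3.22 in Esh9-1. FGFR1 (207937_x_at) was followed by RRP12, MED16 and PPP2R1B (0.9536 to 0.9751), FGFR4 (211237_s_at) by ZGPAT, COX10 and PFDN2 (0.9702 to 0.9745), and FGFR3 (204379_s_at) by GOT2, TRIP12 and DYNC1I2 (0.9000 to 0.9436). For FGFR2 (208234_x_at) the highest correlations were only 0.7797 to 0.7873, with KIF1B, POMT1 and ERC1.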

How the data were processed

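The deposited table holds RMA intensity values of 22277 probe sets on 12 arrays, which the authors left on a linear scale. The submitters' processing notes name RMA; its version and the joint or separate treatment of both sets are not given in sources used here. Groups came from the sample titles, since 1 characteristic of the labels calls every sample resistant, parental cells included. Values were taken to log2(value + 1), which understates fold changes of dim genes. Each comparison was fitted on the 6 arrays of its own set with limma 3.58.1 in R 4.3.3 (lmFit, eBayes, two-sided, 4 residual degrees of freedom before moderation), and the difference of effects on all 12 arrays. That difference sets changes from sets of unequal spread against each other (mean SD of log2 values 1.89 and 2.26). P-values were adjusted over all probe sets with the Benjamini-Hochberg method, and errors of changes are limma's standard errors. Of the probe sets, 19070 carried 1 gene symbol, and only these were named. The procedure was tested on simulated data with independent noise and far fewer changed probe sets than were called here. The members and gene lists were chosen with earlier results of these data known. Every member probe set is named. From each list up to 4 called genes per comparison were named, those with the largest changes whose higher group reached the set median, and any gene behind a count of 5 or fewer. For each member 3 alike genes were named. ETV4 and genes completing a larger count were named after their values were seen. With 3 arrays a group, their number sets how precise a value can be. Alternatives covered the fit over all arrays, the replicate number as a block, pseudocounts, scaling, variance models, filters, a stricter threshold (0.01) and the removal of single arrays. Sequences and their coordinates are from RefSeq on GRCh38.p14. Figures were drawn with matplotlib 3.10.9.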

Additional observations from a re-analysis of the deposited data

Results flagged for a closer look

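The difference between the effect in ERC4 and that in Esh9-1 passed the test in 11 of the 23 member probe sets (limma, all 12 arrays), each given as ERC4 minus parental minus the change in Esh9-1 against NT on the log2 scale. FGF2 differed by -3.98 (204422_s_at) and -1.85 (204421_s_at), and FGF9 by 2.39. FGFR1 differed by -1.85 in 211535_s_at, -0.90 in 215404_x_at, -0.62 in 210973_s_at and -0.34 in 207822_at. The other values were -0.91 for FGFR2 (208229_at), -0.75 for FGFR3 (204379_s_at), and -0.36 and -0.39 for FGFR4 (211237_s_at and 204579_at).

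The 3 smallest of these are not stable. After the parental and ERC4 values had been stretched to the spread of the other set, the differences were -0.36 in 207822_at, -0.32 in 211237_s_at and -0.32 in 204579_at (adjusted p = 0.0585, 0.0883 and 0.15), and none of them was called. Over all alternatives their adjusted p-values ran from 0.0122 to 0.109, from 0.0104 to 0.0903 and from 0.0121 to 0.15. Of the 12 fits that left out 1 array each, the call for 207822_at held in 4, those without parental replicate 2, ERC4 replicate 1, ERC4 replicate 3 or Esh9-1 replicate 2. That for 204579_at also held in 4, those without parental replicate 2 or 3, ERC4 replicate 2 or Esh9-1 replicate 2. That for 211237_s_at held in 6, those without parental replicate 2 or 3, ERC4 replicate 3, NT replicate 2 or 3, or Esh9-1 replicate 3. Values without 1 array lay between -0.42 and -0.23, -0.48 and -0.26, and -0.45 and -0.27 respectively. The other 8 differences were called in every alternative run.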

How the results depend on the processing

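Of the 23 member probe sets, 17 kept their direction and side of the threshold in Esh9-1 minus NT under every alternative, 6 in ERC4 minus parental and 12 in the difference of effects. The FGF2 changes in Esh9-1 ranged from 3.16 to 4.05 (204422_s_at) and from 1.69 to 2.05 (204421_s_at), FGF9 from -2.20 to -1.84 and FGFR1 211535_s_at from 2.13 to 2.40, all called. In ERC4 minus parental the count of called members, 12, became 6 without dim probe sets, where fewer members were tested, and 5 at a threshold of 0.01. Leaving out 1 array gave 8 to 12 called members in ERC4 minus parental, 12 to 14 in Esh9-1 minus NT and 8 to 12 in the difference of effects, and 8651 to 10362, 10036 to 10750 and 9734 to 10662 called probe sets overall. SEC23B in ERC4, at 0.19, turned to -0.037 after quantile normalization, and the cause was not tested. Median centring moved the share of higher calls in ERC4 minus parental from 48.6% to 58.7%. With the replicate number as a block, 11, 13 and 10 members were called. Deviations of same-numbered arrays correlated between -0.14 and 0.06, so no shared effect of the replicate number was seen. Such correlations cannot show whether the arrays were handled in pairs. The 2 sets and dim signal limit what can be read: 12 member probe sets lay under the set median in all 4 groups.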
